A study of Mus musculus with 8 samples.

Results

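Mfsd2a, Tfrc, Cav1, Cav2, Plvap, Lrp1 and Cltc carry, hold back or mark vesicle traffic across the brain endothelium. They were selected by symbol, 7 of the 31053 gene rows of the study, and all 7 were found as 1 row each. RNA was counted in single cells of mouse cortex in 4 groups. Lama4-/- mice lack the laminin alpha 4 chain of the vascular basement membrane, and a wild type (WT) group served as their control. Tek-cre:Lama5-/- mice had the laminin alpha 5 chain deleted by a Cre recombinase under the Tek promoter, which is active in endothelial cells and also in part of the blood lineage, and a further WT group served as their control. All mice were 8 weeks old and perfused with PBS, and the brains of 3 mice were pooled in each group. Every group had 2 samples, but the Lama4-/- samples held identical values and were counted as 1, which left 7 libraries. Each library therefore samples 1 pool, so the spread between libraries leaves out the spread between mice, and all p-values compare pools.

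Endothelial cells of the brain take up little by vesicles compared with those of other organs. Mfsd2a, a lipid transporter of the barrier endothelium, moves lysophospholipids into the brain and holds down the formation of caveolae. Cav1 and Cav2 are the caveolins, coat proteins of those flask-shaped pits. Tfrc, the transferrin receptor, takes iron-loaded transferrin into clathrin-coated pits, whose lattice is built from Cltc, the clathrin heavy chain. Lrp1 is a large endocytic receptor for lipoproteins, proteases and amyloid. Plvap forms the diaphragms of fenestrae and caveolae and is a marker of leaky vessels, with little of it in mature barrier capillaries.

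The genes lie on different chromosomes apart from the caveolins. On GRCm38 with the GENCODE M21 annotation, Cav2 (ENSMUSG00000000058, chr6:17281185-17289115) and Cav1 (ENSMUSG00000007655, chr6:17306335-17341452) stand on the plus strand, 17219 bases apart. An antisense gene, Gm15581, overlaps both on the opposite strand. Tfrc (ENSMUSG00000022797) lies on the plus strand at chr16:32608920-32632794 and Mfsd2a (ENSMUSG00000028655) on the minus strand at chr4:122946850-122961188. Plvap (ENSMUSG00000034845, chr8:71497765-71511752), Lrp1 (ENSMUSG00000040249, chr10:127538161-127621148) and Cltc (ENSMUSG00000047126, chr11:86694351-86757565) are on the minus strand. On the opposite strand, the protein-coding gene Gtpbp3 overlaps Plvap and the antisense gene Gm16217 overlaps Lrp1.

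Promoters are shown for the 4 genes whose levels set the endothelial zones apart, so that the sequence before each start can be read beside its zonal pattern. Each is the RefSeq window of 250 bases before the start on GRCm38.p6, read along the gene's strand, and 6 of the 7 genes had such an entry. Capitals mark matches on either strand to the core of the hypoxia response element (ACGTG), the GC box (GGGCGG), the TATA box (TATAAA), the box named for its letters CCAAT, the cyclic AMP element (TGACGTCA) and the AP-1 site (TGANTCA), none of which overlapped another. The windows are chr16:32608646-32608895 (plus) for Tfrc, chr4:122961189-122961438 (minus) for Mfsd2a, chr6:17306085-17306334 (plus) for Cav1 and chr6:17280935-17281184 (plus) for Cav2.
Tfrc: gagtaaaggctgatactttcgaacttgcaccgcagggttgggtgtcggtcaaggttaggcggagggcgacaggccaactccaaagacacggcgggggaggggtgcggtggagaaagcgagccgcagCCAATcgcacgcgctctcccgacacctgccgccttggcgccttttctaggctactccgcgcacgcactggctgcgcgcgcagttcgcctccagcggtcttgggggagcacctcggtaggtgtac
Mfsd2a: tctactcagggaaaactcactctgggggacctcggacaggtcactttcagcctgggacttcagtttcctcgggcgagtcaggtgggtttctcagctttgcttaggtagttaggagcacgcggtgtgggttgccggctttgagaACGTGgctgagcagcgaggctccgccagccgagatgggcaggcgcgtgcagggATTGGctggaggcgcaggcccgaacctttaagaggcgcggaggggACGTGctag
Cav1: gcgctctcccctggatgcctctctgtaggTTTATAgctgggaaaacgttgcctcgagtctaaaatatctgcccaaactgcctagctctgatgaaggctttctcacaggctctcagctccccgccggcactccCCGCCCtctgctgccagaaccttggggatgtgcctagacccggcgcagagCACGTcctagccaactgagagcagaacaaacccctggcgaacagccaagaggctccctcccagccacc
Cav2: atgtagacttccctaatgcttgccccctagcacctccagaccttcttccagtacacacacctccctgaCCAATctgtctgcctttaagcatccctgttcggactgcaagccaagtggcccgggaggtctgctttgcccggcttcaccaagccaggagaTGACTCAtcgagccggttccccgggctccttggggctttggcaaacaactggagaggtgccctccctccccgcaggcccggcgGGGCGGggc
Tfrc had a CCAAT box 124 bases before the end of its window, which lies 24 bases from the GENCODE start, and no other match. Mfsd2a had ACGTG at 107 and 9 bases and a reverse CCAAT box at 54 bases. Cav1 had the reverse of ACGTG at 68, of the GC box at 118 and of the TATA box at 221 bases. Cav2 shared only the GC box with it, at 9 bases, beside a CCAAT box at 182 and an AP-1 site at 92 bases. Of all 32851 windows of this length, 16.6% held ACGTG, 32.7% the GC box, 12.4% the TATA box, 33.9% CCAAT, 1.55% the cyclic AMP element and 6.75% the AP-1 site. A match describes the letters only. The windows were rich in G and C, from 59.6% in Cav1 to 64.8% in Tfrc.

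The 7 libraries held 35479306 to 48314458 unique molecular identifiers (UMIs, 1 per captured transcript), and 47239 cells were kept. Median UMIs per cell were 5275.5 to 6571.5 in the Lama4 experiment and 2905.5 to 3813 in the Lama5 experiment, lowest in the Lama5 knockout (KO). Any pair of libraries shared 5 to 22 cell barcodes. Clusters gave 26600 endothelial-like cells, 2235 to 5061 per library, in which all 12 endothelial markers were detected (Cldn5 at 4841 to 6825 CPM, the usual scaling of UMIs to the total of the same cells). Of these, 5124 were arterial-like, 15582 capillary-like and 3635 venous-like, and 2259 had no zone. Capillary-like cells of the 2 experiments sat mostly in different clusters, and the largest, led by Adm, Atf3, Sertad1 and Fosb among others, a group that includes early response genes, also had Tfrc among its leading genes. Lama4 had 1 UMI in endothelial-like cells of the Lama4 KO against 921 and 829 in its WT. Lama5 stood at 22.7 and 24.3 CPM in the Lama5 KO against 41.2 and 40.4 in its WT. This is a partial difference in a 3-prime tag, which need not lie in the deleted part.

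Mfsd2a was a capillary gene among the endothelial zones. Its level in capillary-like cells ranged from 260.0 to 493 CPM over the 7 libraries, with a median of 272. Arterial-like cells had 150 to 233 CPM (median 179) and venous-like cells 110 to 147 CPM (median 134). Capillary-like cells were above arterial-like cells in 7 of 7 libraries, by 1.83-fold (log2 0.87 ± 0.26, SD over libraries), and above venous-like cells in 7 of 7, by 2.63-fold. Arterial-like cells were above venous-like cells in 7 of 7 as well, but by as little as 0.02 on the log2 scale in the closest library. Astrocyte-like cells were the only other class near these levels, with 119 to 210 CPM, a range that overlapped the arterial and venous zones. The high capillary values all came from 1 experiment: 476 and 493 CPM in WT libraries and 458 in the Lama4 KO. In the Lama5 experiment the WT had 260.0 and 270.3 CPM and the KO 272 and 265, with no overlap between the experiments.

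Tfrc separated the arterial zone from the others. It stood at 36.7 to 127 CPM in arterial-like cells (median 99.4), 187 to 463 in capillary-like cells (median 361) and 144 to 466 in venous-like cells (median 359). The capillary level was 4.01-fold the arterial level and higher in 7 of 7 libraries. The arterial level was 0.272-fold the venous level and lower in 7 of 7. Capillary-like and venous-like cells did not differ beyond the spread, with the capillary zone higher in 4 of 7 libraries and a log2 difference of 0.12 ± 0.20 (SD); this number was 7 of 7 with coarser zones or doublets kept and 3 of 7 with finer zones. Outside the endothelium, B lineage-like cells had 170 to 267 CPM in the 4 libraries that held enough of them.

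Cav1 was lowest in the capillary zone, where Mfsd2a was highest. It had 349 to 409 CPM in arterial-like cells, 292 to 410 in venous-like cells and 207 to 274 in capillary-like cells. The capillary level was below both others in 7 of 7 libraries, at 0.634-fold the arterial and 0.694-fold the venous level, while arterial and venous levels did not differ beyond their spread (arterial higher in 4 of 7, and in 7 of 7 with doublets kept). Smooth muscle-like cells had 214 to 288 CPM of Cav1, overlapping the capillary range. Cav2 varied less, with 252 to 324 CPM in arterial-like, 217 to 292 in venous-like and 215 to 308 in capillary-like cells. Its arterial level was the highest in 7 of 7 libraries, at 1.13-fold the venous level, and the capillary level was 0.882-fold the arterial level. Capillary and venous Cav2 could not be ordered, since the capillary level was higher in 3 of 7 libraries.

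**Figure D1:**
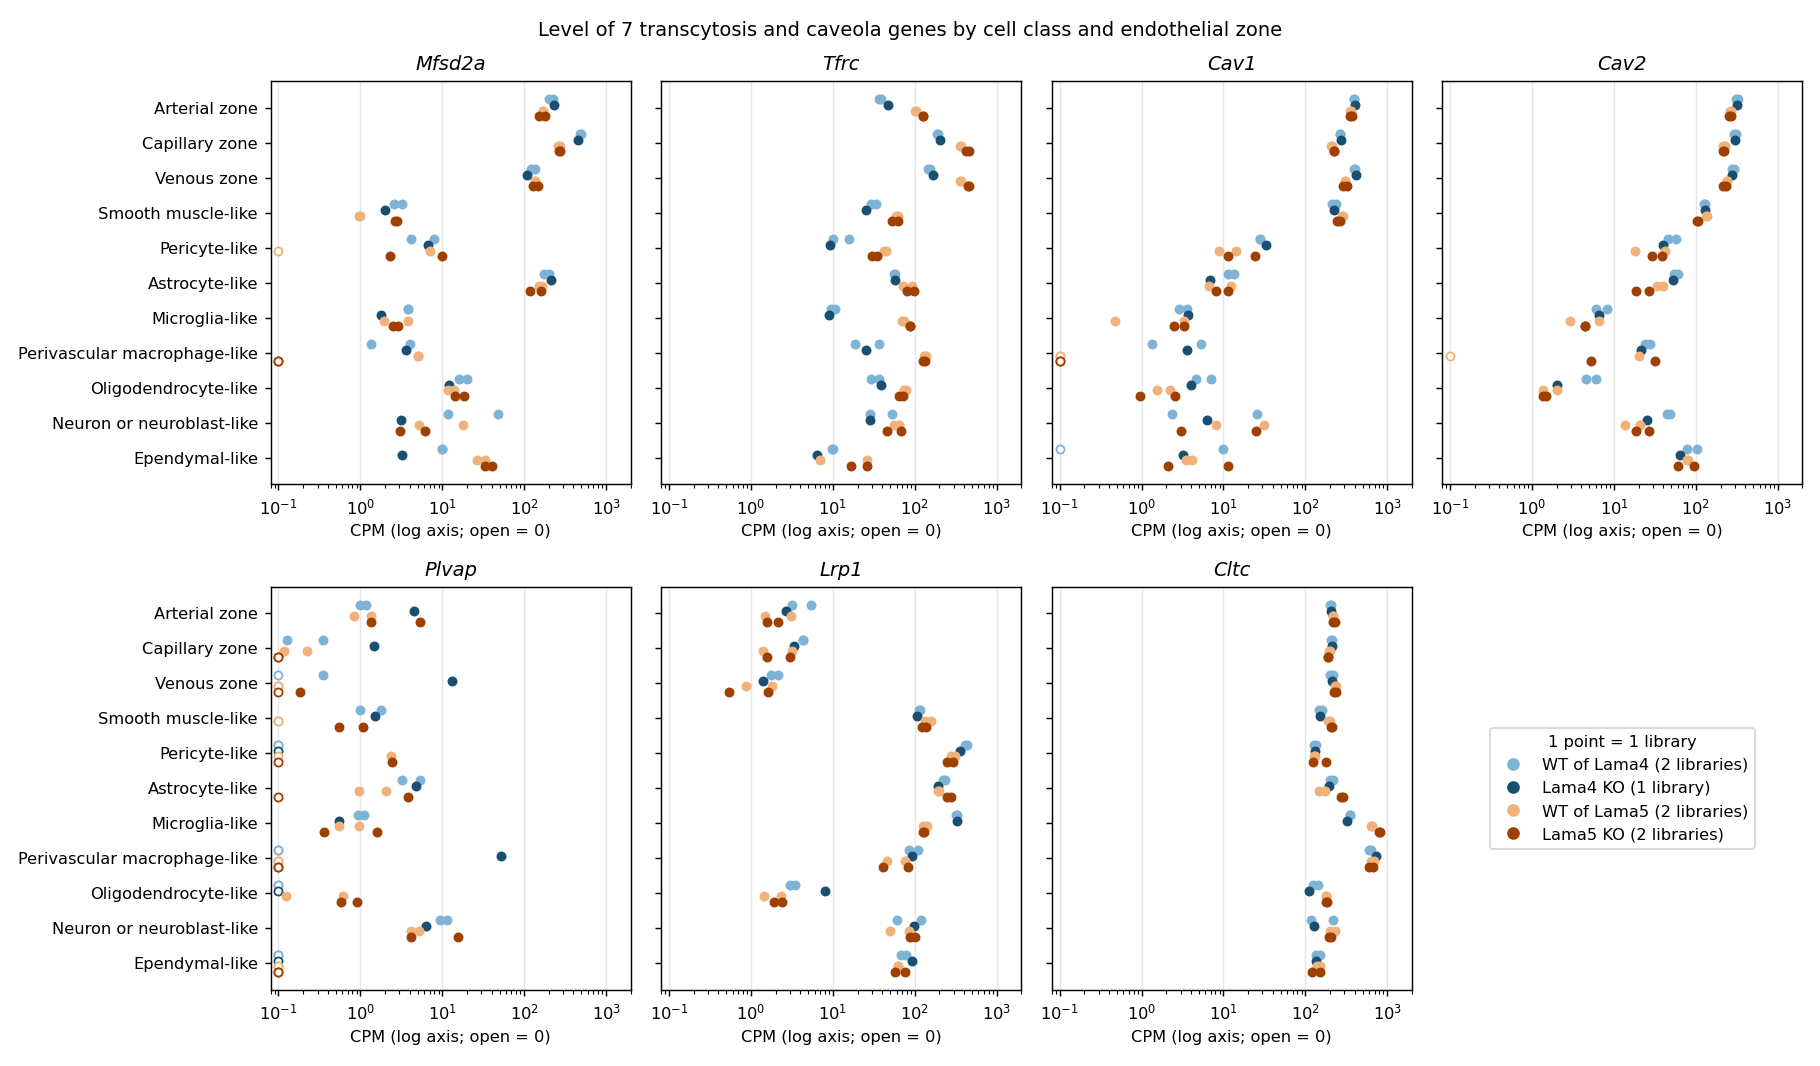
Level of each of the 7 genes in CPM (log axis) by cell class and endothelial zone, with 1 point per library and open points at 0. Mfsd2a points are highest in the capillary zone, Tfrc points lowest in the arterial zone among the zones, and Lrp1 points near the bottom of the axis in endothelial-like cells.

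Lrp1 and Cltc, the endocytic receptor and the clathrin chain, were led by other cells. Lrp1 was highest in fibroblast-like cells (311 to 383 CPM, 3 libraries) and pericyte-like cells (245 to 432 CPM), whose ranges overlapped. Astrocyte-like cells followed with 193 to 274 CPM and microglia-like cells with 127 to 330 CPM. Endothelial-like cells had 1.46 to 3.97 CPM of Lrp1, below the lowest library of each of those classes. Cltc was highest in microglia-like cells (327 to 811 CPM) and perivascular macrophage-like cells (591 to 738 CPM), which overlapped. In endothelial-like cells Cltc kept within 207 to 218 CPM (mean 213 ± 4.23, SD, n = 7). Its arterial, capillary and venous levels overlapped, with the arterial level above the venous in 2 of 7 libraries. In the WT of Lama5, capillary-like cells had 200.8 and 193.1 CPM and venous-like cells 230.9 and 237.5. The order was mixed in the WT of Lama4, at 208.0 and 210.6 against 215.0 and 198.8.

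Plvap stood near background in endothelial-like cells. Its level was 0.360 to 5.41 CPM, with a median of 0.931. A UMI of Plvap was found in 0.138% to 0.583% of endothelial-like cells and in 0.0988% to 0.746% of microglia-like cells, which should lack the gene, so this share reads as background. Median depths were 2611 to 5957 UMIs in endothelial-like and 2779 to 7244 in microglia-like cells. Neuron-like cells had 4.11 to 15.4 CPM.

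The levels across 16 classes and zones that each had enough cells also describe which genes go together, as correlations of mean levels that share libraries and depth. Among the 7 genes, Cav1 and Cav2 were the most alike pair (Pearson r 0.871) and Tfrc and Lrp1 the least (-0.622). Over 12557 genes, the profile of Mfsd2a was closest to that of Pik3ip1 (0.938), Nxpe4 (0.922) and Aqp11 (0.917). Tfrc was closest to Agfg1 (0.838), Parvb (0.836) and Arl4d (0.833), all lower than for Mfsd2a. Cav1 was followed by Rasd1 (0.943), Atp10a (0.937) and Gm10837 (0.936), and Cav2 by Tsc22d1 (0.950), Wwtr1 (0.935) and Uaca (0.915). Lrp1 was closest to Pid1 (0.950), Asph (0.921) and Zfp385a (0.918), Cltc to Hmox1 (0.915), Gm38843 (0.900) and Osbpl11 (0.899), and Plvap to Homer2 (0.846), Igf1 (0.789) and Ap2a2 (0.786). In perivascular macrophage-like cells Plvap had a mean of 7.42 CPM and a median of 0. That mean came from 29 UMIs in 1 cell of the Lama4 KO. Igf1 and Ap2a2 were highest in the same class, and the part of that cell in their coefficients was not tested. All coefficients here are descriptions over 16 points.

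The Lama5 KO was then set against its WT in endothelial-like cells, which asks whether loss of the endothelial laminin goes with a change in the vesicle and barrier genes. Tfrc rose. The WT libraries had 277 and 281 CPM, scaled by the trimmed mean of M values (TMM), and the KO libraries 377 and 357. Levels in the comparisons of a KO with its WT are TMM-scaled unless said otherwise. Both KO libraries stood well above both WT libraries. The log2 change was 0.40 (SE 0.0265, edgeR quasi-likelihood test, Benjamini-Hochberg adjusted p 1.23e-09), a level of 1.32-fold. Without scaling the levels were 284 and 288 against 369 and 346 CPM. The call held in 14 of 14 alternatives, with log2 fold changes from 0.36 to 0.44. Of 13 endothelial clusters with enough cells in each library, both KO libraries were above both WT libraries for Tfrc in 11 and below in 0. For Cav1 these numbers were 4 and 1, for Mfsd2a 2 and 1 and for Cltc 2 and 3. For Cav2 they were 0 and 3, for Lrp1 0 and 2 and for Plvap 0 and 0. The clusters come from the same libraries, and the share over all genes is not given here, so these counts are a description.

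Among all 13184 genes tested in these cells, 17.9% were called (10.0% as higher in the KO), and the median log2 fold change was -0.002. Of the 7 genes, 4 were called and all 4 were higher: Tfrc, Plvap, Cav1 and Mfsd2a. Plvap passed the filter on low counts only through the KO libraries, so this count carries no weight. With DESeq2, which called 7.39% of 11597 genes, 2 of the 7 were called.

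Cav1, the main caveola protein, was higher by a small step. Its TMM-scaled levels were 269.8 and 276 CPM in WT libraries and 296 and 295 in the KO, and the groups did not overlap, also without scaling (277 and 283 against 289 and 286). The log2 change was 0.11 (SE 0.024, edgeR adjusted p 0.00187), but DESeq2 gave an adjusted p of 0.0544. Cav2, its partner in the coat, was not called. It stood at 228 and 233 CPM in WT libraries and 235 and 238 in the KO (log2 0.04, SE 0.026, edgeR adjusted p 0.385), and without scaling the order turned, to 234 and 239 against 229 and 230.4.

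The order of the libraries for Mfsd2a and Cltc depended on the scaling. Mfsd2a had 193 and 195 CPM in WT libraries and 204 and 206 in the KO after TMM scaling, a log2 change of 0.08 (SE 0.026, edgeR adjusted p 0.0432). The call was lost in 8 of 14 alternatives, without each of the 4 libraries among them, and the unscaled levels overlapped, at 198 and 200.3 against 199 and 199 CPM. Cltc had 212 and 211 against 223 and 220.3 CPM after scaling (log2 0.07, SE 0.026, edgeR adjusted p 0.0683), and its unscaled levels overlapped too. Lrp1 rested on 49 and 46 UMIs in WT libraries and 27 and 44 in the KO (log2 -0.05, SE 0.253, edgeR adjusted p 0.925), with overlapping levels, so a change was not detectable at this depth.

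Other markers in the same cells moved with genotype. In endothelial-like cells the summed unscaled level of 10 microglial markers was 130 and 138 CPM in WT libraries and 166 and 172 in the KO. The 10 astrocyte markers summed to 1039 and 1038 against 828 and 826 CPM, and the 9 choroid plexus epithelial markers to 49.1 and 52.2 against 141 and 137. No microglial or astrocyte marker was at 0, while 3 and 4 choroid plexus epithelial markers were at 0 in WT libraries and 0 and 1 in KO libraries. The 5 erythroid markers, of the lineage in which Tfrc is also known to be abundant, summed to 3974 and 4763 against 2885 and 3663 CPM. The 14 capillary markers summed to 11840 and 11980 against 10590 and 10260 CPM. Gm42418, an abundant transcript that overlaps ribosomal sequence, took 34890 and 34140 CPM in WT libraries and 65890 and 72410 in the KO. The part of the astrocyte, choroid plexus epithelial and capillary markers in these results was not tested. With the clusters led by haemoglobin and by microglial genes left out, a setting chosen after seeing the data, the log2 change of Tfrc was 0.41. That setting removed 192 and 85 cells and left any RNA of these markers in other cells. The part of the microglial and erythroid markers was thus not tested either.

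**Figure D2:**
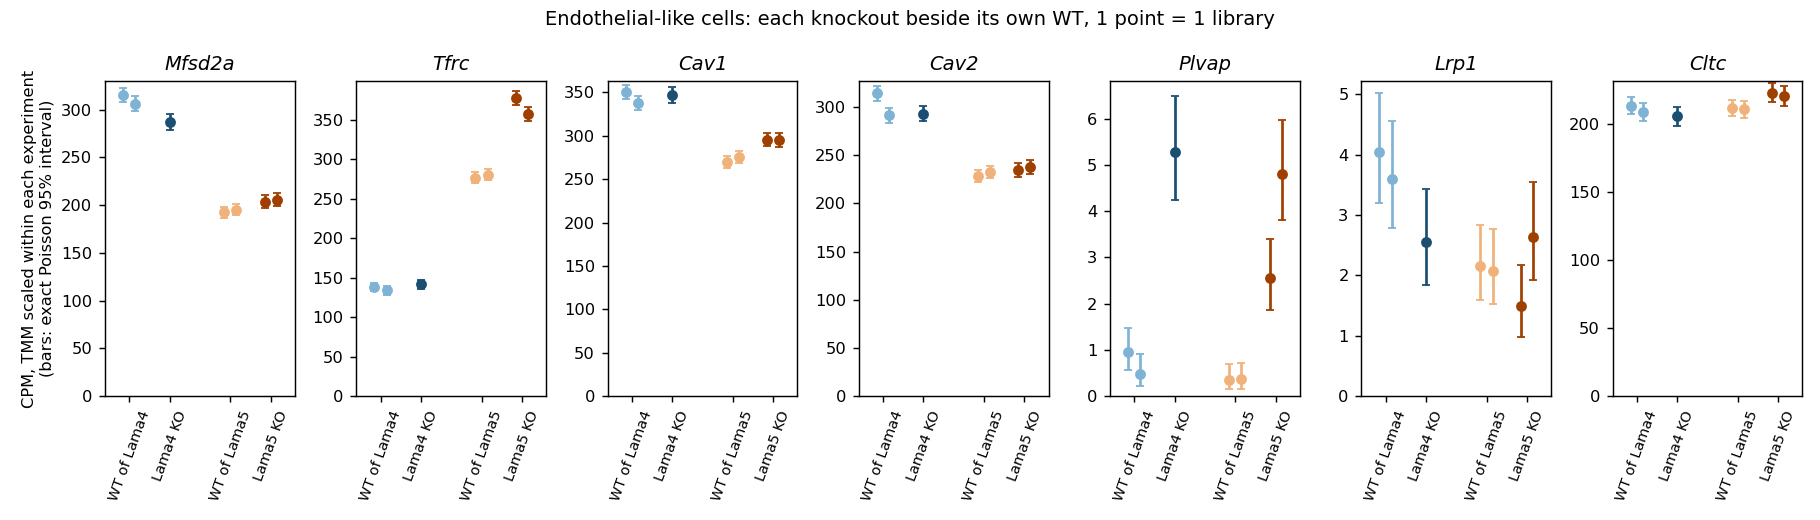
TMM-scaled level of each gene in endothelial-like cells in CPM, with 1 point per library, each KO beside its own WT, and bars for the exact Poisson 95% interval (counting error only). In the Lama5 experiment the Tfrc points of the KO (377 and 357) lie above those of the WT (277 and 281), while the Lama4 KO points of the genes other than Plvap, Lrp1 and Mfsd2a lie within the bars of at least 1 of their WT libraries.

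The rise of Tfrc ran through all 3 zones. Arterial-like cells went from 99.8 and 96.9 CPM in the WT to 130 and 129 in the KO (log2 0.40, SE 0.065, edgeR adjusted p 4.94e-05). Capillary-like cells went from 355 and 351 to 476 and 436 CPM (log2 0.37, SE 0.0325, edgeR adjusted p 3.94e-09), and venous-like cells from 362 and 350.4 to 476 and 463 CPM (log2 0.40, SE 0.037, edgeR adjusted p 2.03e-09). In each zone the groups did not overlap. The difference of the effect between zones was tested itself and was not called: venous minus capillary was 0.02 (SE 0.047, edgeR adjusted p 0.954) and arterial minus capillary 0.03 (SE 0.070, edgeR adjusted p 0.977). For these differences 0 of 6 genes passed at an edgeR adjusted p under 0.05, where 0.443% and 0.178% of all genes did. At an unadjusted p under 0.05, 0 of 6 passed as well. With zones taken at a finer clustering, the venous minus capillary difference of Tfrc was 0.18 (edgeR adjusted p 0.0393).

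Cav1 was called in capillary-like cells and not in the other zones. Its level there was 201 and 209 CPM in WT libraries and 228 and 234 in the KO (log2 0.17, SE 0.037, edgeR adjusted p 0.00218), without overlap. The call was lost with DESeq2 (adjusted p 0.116) and without the second KO library (edgeR adjusted p 0.0509). In arterial-like cells the Cav1 range was 341 to 354 CPM in WT libraries and 360 to 389 in the KO, and in venous-like cells 296 to 297 against 301 to 331. Calls were made for 1 of 6 genes in arterial-like cells (6.78% of all genes there), 2 of 6 in capillary-like cells (9.22%) and 1 of 5 in venous-like cells (10.4%). Whether the Cav1 effect differed between zones was part of the test above, which called 0 of 6.

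**Figure D3:**
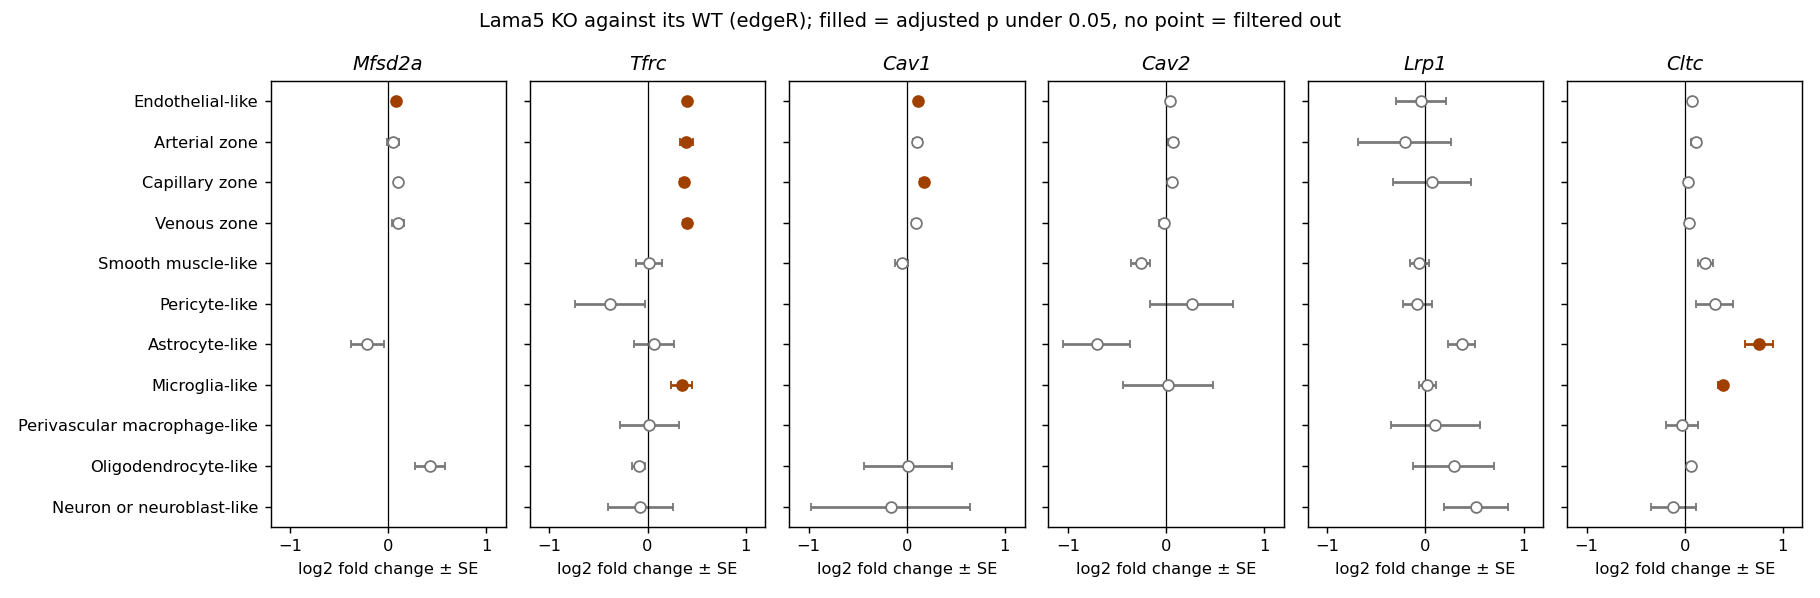
Log2 fold change of the Lama5 KO over its WT with its SE for 6 genes by cell class and endothelial zone, with filled points for an edgeR adjusted p under 0.05 and no point where the gene failed the filter on low counts. Tfrc is filled in endothelial-like cells, in each of the 3 zones and in microglia-like cells, and Cltc in microglia-like and astrocyte-like cells.

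Outside the endothelium, Cltc rose in microglia-like cells. It went from 647 and 626 CPM in the WT to 839.6 and 827 in the KO, without overlap (log2 0.39, SE 0.044, edgeR adjusted p 7.33e-08). The call held in 6 of 6 alternatives, from 0.37 to 0.42. In the same cells the 10 microglial markers summed to 29280 and 29190 CPM in WT libraries and 25110 and 24740 in the KO, and the choroid plexus epithelial markers to 17.7 and 22.8 against 159 and 154. Tfrc was also called there, at 73.4 and 67.3 against 89.7 and 90.1 CPM (log2 0.35, SE 0.107, edgeR adjusted p 0.0253), but that call was lost in 4 of 6 alternatives, with DESeq2 and without the second WT library or either KO library. In microglia-like cells 4 of the 7 genes passed the filter and 2 were called, where 13.3% of all genes were.

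Cltc was higher in astrocyte-like cells as well, where 13% of all genes were called and 1 of 5 of these genes. The WT had 155 and 181 CPM and the KO 273 and 296 (log2 0.76, SE 0.144, edgeR adjusted p 0.000459). Without the first WT library the edgeR adjusted p was 0.0604. In these cells microglial markers summed to 614 and 634 CPM in WT libraries and 2086 and 1676 in the KO, and astrocyte markers to 18400 and 18420 against 14380 and 15170. Of the clusters that make up the class, cluster 13 had 147 and 219 CPM of Cltc in WT libraries and 365 and 399.8 in the KO, whereas cluster 14 overlapped, with 148 and 156 against 143 and 192. Cluster 14 held 131 and 150 WT cells and 48 and 69 KO cells. The part of the microglial markers in this result was not tested.

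In smooth muscle-like cells none of 5 genes was called by edgeR (5.27% of all genes were), and 2 had an unadjusted p under 0.05. Cav2 stood there at 128 and 135 CPM in WT libraries and 108 and 111 in the KO (log2 -0.26, SE 0.096, edgeR adjusted p 0.125). Cltc had 184 and 193 against 215 and 221 CPM (log2 0.21, edgeR adjusted p 0.125). Both separated the libraries without passing the threshold. Calls were also 0 in pericyte-like (0.4% of all genes), oligodendrocyte-like (10.5%), neuron-like (0.0701%) and perivascular macrophage-like cells (1.01%), with 1 gene at an unadjusted p under 0.05 in oligodendrocyte-like cells and 0 in the others. Across classes and zones DESeq2 made 5 calls and edgeR 7, with a gene counted once in each class or zone. Those of edgeR were Tfrc in each zone and in microglia-like cells, Cltc in microglia-like and astrocyte-like cells, and Cav1 in capillary-like cells. The share of all genes called by DESeq2 in these classes and zones is not given here.

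Plvap in the Lama5 KO rested on few cells. Endothelial-like cells held 8 and 8 UMIs in WT libraries and 46 and 80 in the KO, or 0.351 and 0.362 against 2.55 and 4.79 CPM. The edgeR log2 change was 3.33 (SE 0.365, edgeR adjusted p 1.14e-06). Plvap entered that test only through the KO libraries, so the values are given as a description. The number of cells with any Plvap UMI was 8 and 7 in WT libraries and 11 and 12 in the KO, so the groups differed mainly in how many UMIs a few cells held. Cells with at least 3 Plvap UMIs were 0 of 5035 and 0 of 5061 in the WT, which allows a share of up to 0.0596% and 0.0593% at 3 counts and has exact Clopper-Pearson upper bounds of 0.0732% and 0.0729%. They were 4 of 4717 (0.0848%, exact Clopper-Pearson 95% interval 0.0231% to 0.217%) and 6 of 4797 (0.125%, 0.0459% to 0.272%) in the KO, where they held 39 and 74 of the UMIs.

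Nearly all of these cells belonged to 1 small cluster. Led by Apln, Plvap, Fscn1, Lamb1, Angpt2 and Kit, it had 44 cells over the 7 libraries, with 3 and 4 in WT of Lama5 and 12 and 10 in Lama5 KO libraries. The cluster held 9 of the 10 KO cells with at least 3 Plvap UMIs and 39 and 57 of the KO UMIs of Plvap. Other endothelial-like cells held 7 and 23 UMIs in the KO against 8 and 8 in the WT, and 17 of the 23 were in 1 arterial-like cell. With that cluster left out, Plvap failed the filter on low counts. Of the 6 remaining genes 3 were called, the same as with the cluster kept (Tfrc, Cav1 and Mfsd2a). The share of all genes called was 17.9% with the cluster kept and is not given without it. The cluster was formed from other genes of the same cells and Plvap is among the genes that lead it, so its level there is a description: 306 CPM (251 to 369, counting error), beside 317 CPM of Cav1, 194 of Cav2, 171 of Mfsd2a, 185 of Tfrc, 281 of Cltc and no UMI of Lrp1.

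A second group of Plvap cells lay outside the barrier endothelium. A cluster of 17 fenestrated-like endothelial cells had 2429 CPM of Plvap (2215 to 2659) and 0 UMIs of Mfsd2a among 193872, with 41.3 CPM of Tfrc, 268 of Cav1, 206 of Cav2 and 232 of Cltc. In the Lama4 experiment it held 3 and 3 cells in its WT libraries and 10 in its KO library, with 177 and 61 against 233 Plvap UMIs. It held 1 cell in the Lama5 experiment. Choroid plexus epithelial-like cells, the cells next to fenestrated vessels of the choroid plexus, numbered 27 and 26 in that WT and 116 in that KO. The part of choroid plexus tissue in these numbers was not tested.

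**Figure D4:**
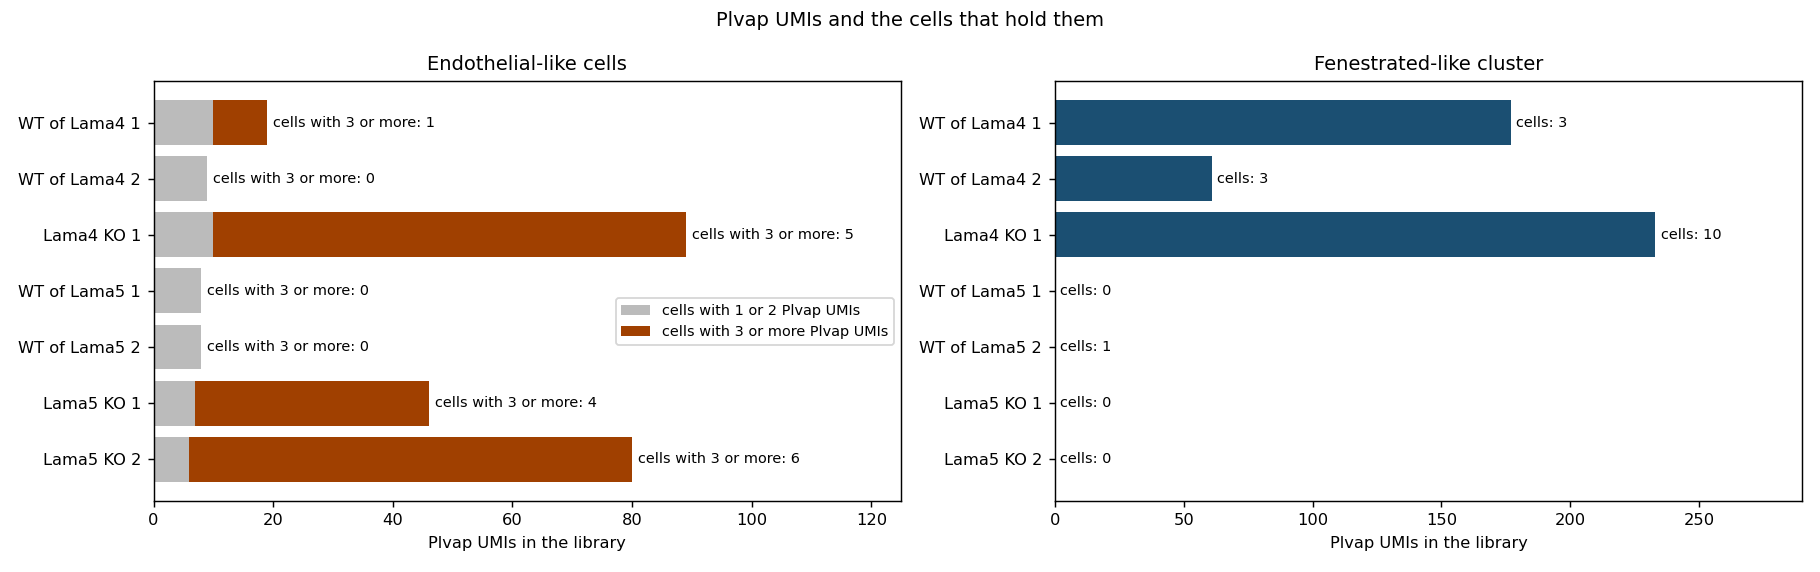
Left, Plvap UMIs in endothelial-like cells of each library, split into cells with 1 or 2 UMIs and cells with at least 3; right, Plvap UMIs and cell numbers of the fenestrated-like cluster by library. Cells with at least 3 UMIs hold 39 and 74 UMIs in the Lama5 KO and 79 in the Lama4 KO, and the cluster holds 233 UMIs in the Lama4 KO.

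The Lama4 KO had 1 library, so its levels are described with their counting error (exact Poisson 95% intervals) and without a test. A gene counted as past the size rule when its log2 ratio to the WT mean was at least 0.5 either way, outside both WT libraries and at 20 CPM or more, which held for 1.45% of 6407 genes in endothelial-like cells. Of the 7 genes, 5 reached 20 CPM and 0 were past the rule. Mfsd2a stood at 287 CPM (279 to 295) in the KO against 315 and 306 in the WT, a log2 ratio of -0.12 (-0.06 without scaling) and lower than both. Tfrc was at 142 CPM (136 to 148) against 139 and 134, a log2 ratio of 0.06 (0.11 without scaling). Cav1 (347 CPM against 350.0 and 338, log2 0.01) and Cav2 (293 CPM against 314 and 291, log2 -0.05) lay between their WT libraries.

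Cltc stood at 206 CPM against 213 and 209, a log2 ratio of -0.04 that was 0.02 without scaling. Lrp1 had 43 UMIs against 81 and 67, or 2.55 CPM (1.85 to 3.43) against 4.04 and 3.59. By zone, the log2 ratios of the 5 genes lay between -0.03 and 0.27 in arterial-like, -0.13 and 0.06 in capillary-like and -0.28 and 0.14 in venous-like cells, and 0 were past the rule (1.86%, 1.58% and 2.37% of all genes were). In astrocyte-like and smooth muscle-like cells 5 of the 7 genes reached 20 CPM, in pericyte-like cells 4 and in microglia-like cells 2. In astrocyte-like (5.15% of all genes), microglia-like (2.35%), pericyte-like (12%) and smooth muscle-like cells (4.96%) 0 were past the rule as well. In perivascular macrophage-like cells (18.6%) Plvap was, from 29 UMIs in 1 cell.

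Plvap in endothelial-like cells of the Lama4 KO rested on few cells as well. It had 89 UMIs against 19 and 9 in the WT, or 5.28 CPM (4.24 to 6.49) against 0.947 and 0.483. Cells with at least 3 UMIs were 5 of 2403 (0.208%, exact 95% interval 0.0676% to 0.485%) against 1 and 0, and held 79 of the UMIs, 47 of them in 1 cell. The venous-like zone held 55 of the UMIs in 3 cells, against 2 and 0 in the WT. In the same endothelial-like cells choroid plexus epithelial markers summed to 1154 CPM in the KO and 231 and 161 in the WT.

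The WT pools of both experiments were compared next, to show how far controls can lie apart. In endothelial-like cells 55.5% of 13288 genes were called between them and 6 of these 7. Tfrc had 136 and 133 unscaled CPM in the WT of Lama4 and 284 and 288 in the WT of Lama5, a log2 difference of 1.2 (SE 0.031, edgeR adjusted p 9.80e-13), a larger difference than that of the Lama5 KO from its WT. Mfsd2a went the other way, from 310.1 and 304 to 198 and 200.3 CPM (log2 -0.51, edgeR adjusted p 6.88e-09). Differences of Cav1 (-0.17), Cav2 (-0.22), Lrp1 (-0.68) and Cltc (0.17) were also called by edgeR, that of Lrp1 not by DESeq2 (adjusted p 0.143), and Plvap was not called (-0.84, edgeR adjusted p 0.121).

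The Tfrc difference between the pools was not limited to vessels. Both WT libraries of Lama5 were above both of Lama4 in 10 of 11 classes and zones, by 0.55 to 2.78 on the log2 scale. In microglia-like cells Tfrc stood at 74.8 and 69.1 against 9.55 and 10.5 CPM. Lrp1 in microglia-like cells was lower in the WT of Lama5, at 127 and 141 against 329 and 321 CPM, and Cltc higher, at 659 and 642 against 348 and 356. Neither group carried a deletion, and pool and experiment cannot be told apart. The capillary cluster that had Tfrc among its leading genes held 914 and 900 cells of the WT of Lama5 and 135 and 120 of the WT of Lama4.

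Shares of cells with a UMI tell of the same genes on a second scale, with each cell thinned to 1500 UMIs. Thinned shares leave out the cells under 1500 UMIs, while unthinned shares count all cells. How many cells this left out in each library is not given here. Tfrc was found in 31.0% and 31.2% of endothelial-like cells of the Lama5 WT and 36.2% and 35.5% of its KO, and unthinned in 51.1% and 50.5% against 54.2% and 51.8%. In the Lama4 experiment the thinned share was 19.1% and 16.3% in WT libraries and 18.8% in the KO. Mfsd2a was found in 37.1% and 37.3% of WT cells and 36.2% of the KO cells of the Lama4 experiment, and in 25.9% and 26.0% of WT cells and 27.3% and 26.0% of the KO cells of the Lama5 experiment. Microglia-like cells, which should lack both Mfsd2a and the caveolins, had thinned shares of 0.17% to 1.1% for Mfsd2a and 0% to 0.79% for Cav1. Shares of Cav1 overlapped between WT (29.4% and 30.4%) and KO (30.0% and 31.1%) of the Lama5 experiment, and unthinned its order turned, from 52.5% and 52.8% to 50.1% and 47.9%.

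Lists of further genes of the same routes were counted in Lama5 KO endothelial-like cells. Of 76 tested genes in 5 lists, 18 were called (23.7%, against 17.9% of all genes), 8 higher and 10 lower, with a median log2 fold change of -0.02. Among caveola coat and neck genes 3 of 10 were called, with a list median of 0.006. Cavin2, a coat protein of caveolae, fell from 914 and 886 to 816 and 825 CPM (log2 -0.13, edgeR adjusted p 7.82e-05), and Cavin3 from 129.6 and 124 to 119 and 117 (-0.11, edgeR adjusted p 0.0251). Cavin1, which the caveolae need to form, went up from 329 and 339 to 357 and 351 CPM (0.08, edgeR adjusted p 0.0179). After TMM scaling, coat genes thus moved in both directions beside the rise of Cav1. Unscaled levels are not given for the genes of these lists. Those of Mfsd2a, with a change as small as that of Cavin1, overlapped.

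Among clathrin coat and adaptor genes 3 of 16 were called. Epn1 (log2 -0.23, edgeR adjusted p 0.00308) and Hip1 (-0.11, edgeR adjusted p 0.00366) were lower, and Picalm, an adaptor that acts in clathrin transport at the barrier, was higher at 364 and 350.2 against 333 and 335 CPM (0.10, edgeR adjusted p 0.00687). Among receptors of endocytosed cargo 5 of 15 were called. Fcgrt, the neonatal Fc receptor that recycles antibodies, fell from 296 and 299 to 248 and 249 CPM (-0.26, edgeR adjusted p 1.34e-07), and Lrp8 from 143 and 142 to 134 and 128 (-0.12, edgeR adjusted p 0.00932).

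Iron handling genes, the cargo side of Tfrc, had 5 of 13 called, 4 higher and 1 lower, with a list median of 0.009. Fth1, the ferritin heavy chain that stores iron, rose from 2241 and 2273 to 2776 and 2751 CPM (0.29, edgeR adjusted p 1.97e-10). Ncoa4, which brings ferritin to breakdown, rose from 114 and 112 to 145 and 138 CPM (0.33, edgeR adjusted p 2.50e-07). Steap3, a reductase of endosomal iron, fell from 17.9 and 17.1 to 12.5 and 13.2 CPM (-0.45, edgeR adjusted p 0.000486). Endosomal routing genes had 2 of 22 called, Eea1 higher (0.17, edgeR adjusted p 0.00248) and Rab11b lower (-0.17, edgeR adjusted p 0.00262). In the Lama4 KO library 0 of 64 listed genes at 20 CPM or more were past the size rule.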

How the data were processed

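The authors deposited UMI counts, not normalised, for each gene in each barcode (Chromium 3-prime v3, per the labels' protocols), made with Cell Ranger 3.1.0 per the file headers; Seurat 3.1 and mm10 are named in the submitters' processing notes. Of the gene IDs, 30934 of 31053 (99.6%) are in GENCODE M21. Both Lama4-/- samples were identical and used once.

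Cells with at least 500 genes and under 15% mitochondrial UMIs were kept, and 227 to 586 scored doublets per library were removed. Leiden clusters (igraph 0.11.9, resolution 1; 2000 variable genes, 30 components, 15 neighbours) took a class name when at least 3 markers were detected in 25% of cells at 2-fold or more; 15 classes were named and 383 cells had none. The 7 genes were kept out of the variable genes. Zones came from clusters of endothelial-like cells. Counts were summed per library and class, with at least 50 cells in each library for a test.

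Differences were tested by quasi-likelihood in edgeR 4.0.16 (R 4.3.3, limma 3.58.1) over all genes with filterByExpr, TMM and a Benjamini-Hochberg adjusted p under 0.05; DESeq2 1.42.0 was an alternative. Levels by class and zone use unscaled totals. Lama4 ratios used a pseudocount of 0.5 CPM. On simulated data for the endothelial-like comparison (13022 genes), edgeR recovered 63.2% of genes changed 1.2-fold and 98.5% of those changed 1.5-fold, with 13 false calls among 12822. The changed genes were drawn from genes with higher counts, so the recovery does not cover Lrp1 or Plvap. No shift such as that of Gm42418 was simulated, so the false calls do not cover changes that depend on the scaling. Intervals cover counting error only. Genes named beyond the 7 are the called ones with the 3 largest changes in each list, of which 1 is not reported here. The genes, lists and markers were chosen with earlier results of these data known.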

Additional observations from a re-analysis of the deposited data

Results flagged for a closer look

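Cav2 had its KO libraries on opposite sides of the WT in 2 cell classes of the Lama5 experiment. Both KO libraries were above both WT libraries in endothelial-like cells (log2 ratio of TMM-scaled means 0.035) and below both in smooth muscle-like cells (-0.259). The difference between the classes was not tested, neither value passed the edgeR threshold, and the endothelial order turns without TMM scaling. Classes with few UMIs of a gene were left out of this flag. Among them, Cav2 was also lower in astrocyte-like cells (-0.711, lowest count 9 UMIs) and Tfrc in pericyte-like cells (-0.379, lowest count 13 UMIs). How many of all genes show such opposite orders is not given, so the flag carries no weight alone.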

How the results depend on the processing

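Each result was recomputed under other settings. Of the alternatives for counts and other main results, 49 stayed within 1.5 times and 5 did not. DESeq2 called 857 genes in Lama5 KO endothelial-like cells against 2358 with edgeR, and 2 of the 7 genes against 4. Leaving out each library in turn gave 1981 to 2076 genes and 3 of the 7. Zones at resolution 2 gave 2 calls for the difference of the Lama5 effect between zones, against 0. These were Tfrc, venous minus capillary, and Plvap, arterial minus capillary. Plvap failed the filter on low counts in every zone of the main setting and rests on few cells, so its call carries no weight. The same zones kept the highest zone for 4 of the 7 genes, all but Tfrc, Plvap and Lrp1 (5 at resolution 0.5). Without thinning, 2 of the 7 genes had a higher share of endothelial-like cells in both Lama5 KO libraries than in both WT libraries, against 5 with thinning. How many of all genes separate in this way was not counted, so these numbers carry no weight. The alternatives on shares and on left-out clusters were chosen after seeing the data. Lrp1 in endothelial-like cells changed sign without the first Lama5 KO library (log2 0.32) and with doublets kept (0.0077), and lay between -0.50 and 0.32 with each library left out. Calls in other classes and zones numbered 7, and 6 to 10 with each library left out. For single genes 213 alternatives were counted as the same, 17 lost their call, 2 gained it, 7 moved and 2 changed sign. In tested comparisons the same meant an unchanged direction and call. In the Lama4 KO, which has no test, it meant a shift no larger than the SD between the WT libraries, whatever the sign. The small log2 ratios of Cav1 (lowest -0.012), Cav2 (highest 0.008) and Cltc (highest 0.016) did change sign there and are not among the 2. Replicate numbers did not pair the libraries: deviations of same-numbered libraries correlated by -0.068 over 6018 genes in endothelial-like cells. With the replicate number as a block, 2206 genes and 3 of the 7 were called, and 7 in other classes and zones. Plvap and Lrp1 rest on few UMIs in endothelial-like cells, and the Lama4 KO has no replicate.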
